A study of Danio rerio with 6 samples.

Results

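The ms4a17a genes of zebrafish are a family of related membrane protein genes, and they were followed here in the whole kidney marrow of adult fish. Members were selected on their symbol and their mean level. They were the genes whose symbol begins with ms4a17a, of which the table held 14 among 32057 gene identifiers. The 10 with the highest mean TPM over the 6 libraries were kept, so the members were chosen by that mean, which is not itself a result. The last gene kept, ms4a17a.7, had a mean of 0.610 TPM (transcripts per 1e+06, a level per transcript length within a library), and the first gene left out, ms4a17a.17, had a mean of 0.457 TPM.

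Heterozygous fish carried the nz171 allele of rad21a in the germline, beside a normal copy of the gene. This allele is a nonsense mutation, and rad21a encodes a subunit of the cohesin ring. Wild-type fish were their siblings from crosses between heterozygous parents, and no other allele or treatment is named for either genotype. Each genotype had 3 libraries, and each library came from the pooled marrow of 3 adult fish. Neither the age in months, nor the sex of the fish, nor the clutch of each pool is stated in the labels. The separate pools are the replicates.

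MS4A proteins cross the cell membrane several times and are found mostly on blood and immune cells. In mammals the best known are MS4A1, which is the B cell antigen CD20, MS4A2, which is the beta chain of the high-affinity IgE receptor of mast cells, and MS4A4A, which is found on macrophages. No role is given here to single zebrafish ms4a17a genes. RefSeq lists ms4a4a as a synonym of ms4a17a.11. Kidney marrow is the blood-forming tissue of adult fish and holds red cells, myeloid cells and lymphocytes among kidney tubules. Levels of a marrow transcript therefore depend on which cells a pool contained as well as on each cell's RNA, and in bulk samples fewer cells of a type and less RNA per cell cannot be told apart.

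The mutated gene rad21a stood at 67.4, 61.6 and 61.98 TPM in heterozygous marrow, against 110.1, 73.9 and 108 TPM in wild-type marrow, and these ranges did not overlap. Its log2 fold change was -0.58 ± 0.22 (SE) and did not pass the threshold (limma adjusted p = 0.301). Blood and kidney markers were abundant in all libraries, with lyz, the neutrophil lysozyme, between 13256 and 41724 TPM and CDH17, a tubule cadherin, between 155 and 465 TPM. Egg transcripts set wild-type pools 2 and 3 apart: the 19 genes of an oocyte list summed to 229, 170 and 4.97 TPM in heterozygous marrow, against 328, 19633 and 5583 TPM in wild-type marrow. The family sum, the numbers of genes called and the fits of rad21a, tested members and tested relatives were therefore also computed without wild-type pools 2 and 3. Untested members, ratios between members, flanking genes, nearest genes and marker lists are given with all libraries only. TPM keeps no read depth, so no counting interval can be given for any level.

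As a family, ms4a17a transcripts were higher in every heterozygous pool than in any wild-type pool. The 10 kept genes summed to 90.7, 51.0 and 73.6 TPM in heterozygous pools 1 to 3, against 20.5, 24.0 and 34.3 TPM in wild-type pools 1 to 3. The means were 71.8 ± 19.9 TPM in the heterozygotes and 26.3 ± 7.17 TPM in the wild type (SD, n = 3 each), a ratio of 2.73. The lowest heterozygous pool stood 1.48-fold above the highest wild-type pool. A sum over genes chosen for this description was given no test. Adding the other 4 genes of the family changed little, with means of 73.3 ± 20.2 TPM in the heterozygotes and 26.9 ± 6.94 TPM in the wild type.

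**Figure D1:**
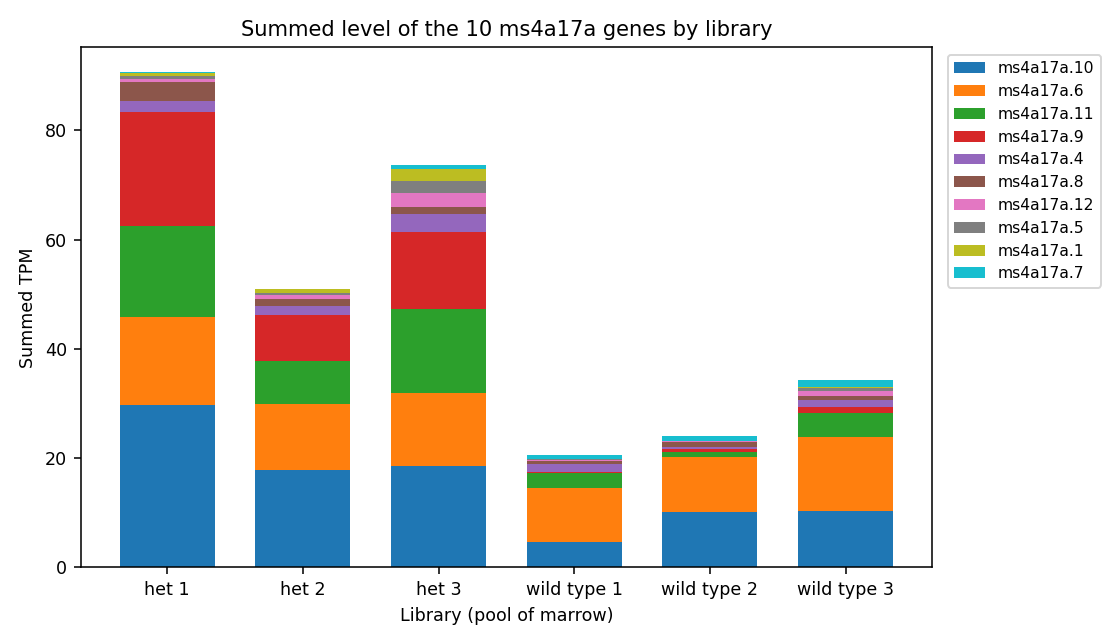
Stacked bars give the TPM of the 10 kept ms4a17a genes in each library, with the heterozygous pools at the left and the wild-type pools at the right. The bars reach 51.0 to 90.7 TPM in heterozygous marrow, against 20.5 to 34.3 TPM in wild-type marrow, and the segment of ms4a17a.9 is wide in the heterozygous pools and thin in the wild-type pools.

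Most of that difference lay in 3 genes. ms4a17a.9 made up 30.2% of the difference between the 2 mean sums, ms4a17a.10 made up 29.9% and ms4a17a.11 made up 23.5%. Those 3 together summed to 67.3, 34.1 and 47.9 TPM in heterozygous marrow, against 7.64, 11.7 and 15.9 TPM in wild-type marrow. The remaining 7 kept genes summed to 23.4, 16.8 and 25.8 TPM in heterozygous marrow, against 12.9, 12.3 and 18.4 TPM in wild-type marrow, so that without the 3 genes the groups overlapped. The make-up of the family differed accordingly. ms4a17a.6 was the most abundant member in wild-type pools 1 and 3 and ms4a17a.10 in wild-type pool 2 and in all 3 heterozygous pools.

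ms4a17a.9 showed the widest gap between the genotypes among the tested members. It stood at 20.8, 8.40 and 14.0 TPM in heterozygous marrow, against 0.304, 0.482 and 1.17 TPM in wild-type marrow. Every heterozygous pool was high and every wild-type pool low, and the lowest heterozygous value was 7.17-fold above the highest wild-type value. The means of 14.4 ± 6.21 TPM in the heterozygotes and 0.652 ± 0.458 TPM in the wild type (SD, n = 3 each) differed 22.1-fold. On the log2(TPM + 1) scale, where changes of low genes come out smaller, the fold change was 3.17 ± 0.36 (SE), with a 95% interval from 2.31 to 4.04. It passed the threshold of an adjusted p under 0.05 over all 16537 genes tested (limma adjusted p = 0.0123). Among those genes 30 had a larger log2 fold change. A two-sided exact permutation test, with 20 possible arrangements, gave p = 0.1, the smallest that 3 against 3 allows. ms4a17a.9 reached 1 TPM in only 1 wild-type pool, so it entered the main fit through being high in the heterozygotes. Its rank and call there are therefore a description. In a fit with no filter, over 28762 genes, the limma adjusted p was 0.0438.

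The share of ms4a17a.9 in the family sum is computed from the levels just given, so it is not a second observation. It was 22.9%, 16.5% and 19.0% in the heterozygous pools and 1.48%, 2.004% and 3.41% in the wild-type pools. The gene was among the 3 most abundant members in every heterozygous pool and in no wild-type pool. The call was lost without 1 single library: without heterozygous pool 3 the log2 fold change was 3.15 with a limma adjusted p = 0.0585, and without any other single library it stayed between 2.88 and 3.49 with the call kept. Without wild-type pools 2 and 3, which leaves 1 wild-type library, the log2 fold change was 3.48 and the call was lost (limma adjusted p = 0.143), as it was with the egg transcript score as a covariate, at 3.41 (limma adjusted p = 0.0837).

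ms4a17a.10 and ms4a17a.11 also stood higher in all heterozygous pools, but neither passed the threshold over all genes. ms4a17a.10, the most abundant member, stood at 29.7, 17.9 and 18.5 TPM in heterozygous marrow, against 4.72, 10.2 and 10.4 TPM in wild-type marrow. The highest library was heterozygous pool 1 and the lowest was wild-type pool 1. Its log2 fold change was 1.32 ± 0.36 (SE, limma adjusted p = 0.184, unadjusted p = 0.00797). ms4a17a.11 stood at 16.8, 7.86 and 15.3 TPM in heterozygous marrow, against 2.62, 1.03 and 4.35 TPM in wild-type marrow. Here the groups were 1.81-fold apart at their nearest values, and the ratio of the means was 5.0003. In limma the difference of ms4a17a.11 was 2.01 ± 0.44 on the log2 scale (SE, adjusted p = 0.105, unadjusted p = 0.00263). Without wild-type pools 2 and 3 the log2 fold changes of ms4a17a.10 and ms4a17a.11 were 1.97 and 1.92. With the egg transcript score as a covariate they were 2.13 and 1.55 (limma adjusted p = 0.109 and 0.505).

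**Figure D2:**
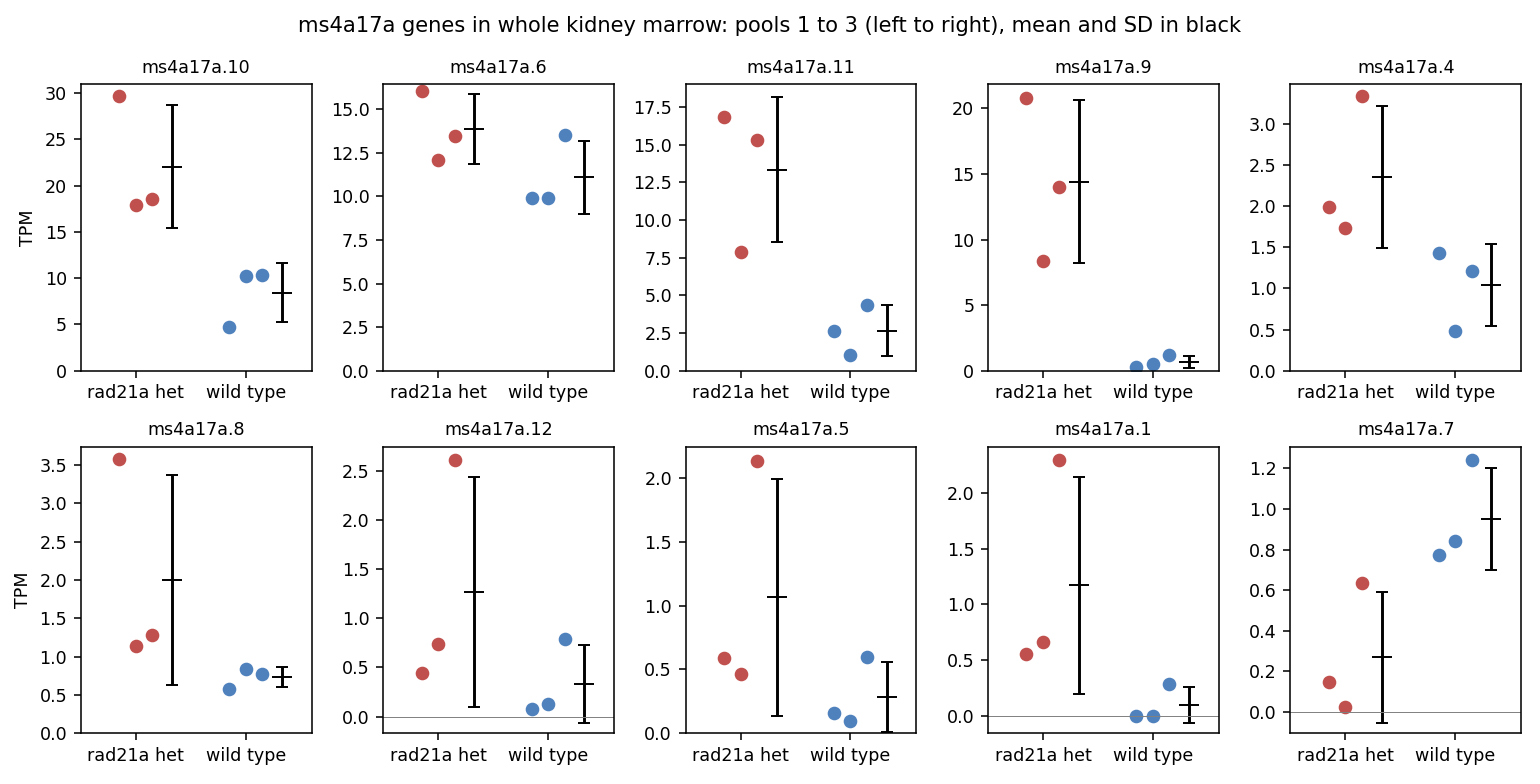
Each panel plots 1 kept gene, with TPM on the vertical axis, the heterozygous pools in red at the left and the wild-type pools in blue at the right, and the mean with its SD in black beside each group. The groups do not overlap for ms4a17a.9, ms4a17a.10, ms4a17a.11, ms4a17a.4, ms4a17a.8 and ms4a17a.1, which are higher in the heterozygotes, nor for ms4a17a.7, which is lower, and they overlap for ms4a17a.6, ms4a17a.12 and ms4a17a.5.

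ms4a17a.6 overlapped between the genotypes and did not pass the threshold. It stood at 16.1, 12.1 and 13.5 TPM in heterozygous marrow, against 9.88, 9.92 and 13.5 TPM in wild-type marrow. Wild-type pool 3 lay within the range of the heterozygous pools. In limma the log2 difference was 0.30 ± 0.23 (SE, adjusted p = 0.555), with a 95% interval from -0.24 to 0.84. That interval lies below the interval of ms4a17a.9 on the same scale, which begins at 2.31. Without wild-type pools 2 and 3 the log2 difference of ms4a17a.6 was 0.44. With the egg transcript score as a covariate it was 0.40 (limma adjusted p = 0.761). The share of ms4a17a.6 in the family was 19.9 ± 3.29% in the heterozygotes and 42.9 ± 4.58% in the wild type (SD, n = 3 each).

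Lower down, ms4a17a.4 and ms4a17a.8 were close to the detection filter of 1 TPM in 3 libraries. ms4a17a.4 stood at 1.98, 1.73 and 3.34 TPM in heterozygous marrow, against 1.43, 0.488 and 1.21 TPM in wild-type marrow. The groups did not overlap, by a margin of 1.21-fold, and the log2 fold change was 0.71 ± 0.27 (SE, limma adjusted p = 0.301). Without wild-type pools 2 and 3 this fold change was 0.43. With the egg transcript score as a covariate it was 0.098 (limma adjusted p = 0.950). ms4a17a.8 stood at 3.59, 1.13 and 1.28 TPM in heterozygous marrow, against 0.583, 0.838 and 0.777 TPM in wild-type marrow. It entered the test through the heterozygous pools alone, since no wild-type pool reached 1 TPM, and heterozygous pool 1 set most of its mean. Without that pool its log2 fold change was 0.35, against 0.70 with all libraries (limma adjusted p = 0.354 with all libraries). For ms4a17a.8 it was 0.83 without wild-type pools 2 and 3, and 1.05 with the egg score (limma adjusted p = 0.542 with the egg score).

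The other 4 kept genes were below the filter and were not tested in the main fit. ms4a17a.12 stood at 0.447, 0.742 and 2.61 TPM in heterozygous marrow, against 0.0752, 0.132 and 0.795 TPM in wild-type marrow. ms4a17a.5 stood at 0.592, 0.466 and 2.13 TPM in heterozygous marrow, against 0.159, 0.0958 and 0.595 TPM in wild-type marrow. ms4a17a.1 stood at 0.557, 0.661 and 2.296 TPM in heterozygous marrow, was listed at 0 in wild-type pools 1 and 2, and stood at 0.279 TPM in wild-type pool 3. All 3 of these genes were highest in heterozygous pool 3 and, within the wild type, in pool 3. The 3 pairs among them had the most alike profiles of all pairs of kept members, with root mean square distances of 0.151 to 0.178 between their log2(TPM + 1) profiles, each centred on its own mean. Low genes have short distances on this scale, so that order is a description only.

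ms4a17a.7 went the other way. It stood at 0.147, 0.0229 and 0.635 TPM in heterozygous marrow, against 0.773, 0.844 and 1.24 TPM in wild-type marrow. It was the 1 kept gene with a lower mean in the heterozygotes, and its groups did not overlap. Its share in the family was 0.357 ± 0.442% in the heterozygotes and 3.63 ± 0.126% in the wild type (SD, n = 3 each). In a fit with no filter, over 28762 genes, its log2 fold change was -0.64 ± 0.21 (SE, limma adjusted p = 0.307). In the same fit ms4a17a.12, ms4a17a.5 and ms4a17a.1 had log2 fold changes of 0.69, 0.62 and 0.91 with limma adjusted p between 0.325 and 0.459.

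Of the 4 genes not kept, ms4a17a.2 was higher in the heterozygotes, at 0.360, 0.177 and 2.02 TPM in heterozygous marrow, against at most 0.0421 TPM in wild-type marrow. Like ms4a17a.12, ms4a17a.5 and ms4a17a.1 it was highest in heterozygous pool 3. ms4a17a.17 ranged from 0.242 to 0.843 TPM in the heterozygotes and from 0.140 to 0.894 TPM in the wild type. ms4a17a.3 and ms4a17a.16 reached at most 0.175 TPM in any of the 6 libraries.

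Of the 10 kept genes 6 were tested, and 1 of these 6 passed the threshold, in the higher direction; of all tested genes 1.37% passed, 0.81% higher and 0.562% lower. Of the 10, 6 were higher in the heterozygotes without overlap and 1 was lower without overlap. Of all 14 ms4a17a genes, 7 were higher and 1 was lower without overlap. Among the 28762 genes above 0 in a library, 10% were higher and 11.5% were lower without overlap. The mean that kept the 10 includes the heterozygous pools, so a gene high only there could enter. ms4a17a.1 was kept with means of 1.17 TPM in the heterozygotes and 0.0931 TPM in the wild type. ms4a17a.17, with means of 0.493 and 0.422 TPM, was left out. The overlap counts are therefore a description. Among the 6 members that passed the filter the log2 fold changes ran from 0.30 to 3.17 with a median of 1.02, and the median over all 16537 tested genes was -0.02. ms4a17a.8 passed only through the heterozygous pools, and ms4a17a.9 reached 1 TPM in all heterozygous pools and in 1 wild-type pool, so that neither could have entered the test without being high in the heterozygotes. For that reason the count and median over these 6, and the call of ms4a17a.9 among them, are given as a description.

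Among relatives of the family the genotypes overlapped. The list held the 8 other genes with an ms4a or tmem176 symbol, namely ms4a17c.1, ms4a17c.2 and 6 tmem176 genes, which encode proteins of the same superfamily. Their sum was 212, 121 and 167 TPM in heterozygous marrow, against 133, 131 and 232 TPM in wild-type marrow, and the ranges overlapped. Neither ms4a17c gene exceeded 0.666 TPM in any library. Of the 4 relatives tested, 0 passed the threshold in limma and 0 had an unadjusted p under 0.05, which 15% of all tested genes had. tmem176l.1, the most abundant, stood at 132, 65.1 and 84.2 TPM in heterozygous marrow, against 70.9, 83.8 and 102 TPM in wild-type marrow. tmem176, tmem176l.4 and tmem176l.3a had log2 fold changes of 0.55, -1.02 and -0.37 with limma adjusted p between 0.468 and 0.734. Their 95% intervals each spanned 0 and were wide, from -2.51 to 0.47 for tmem176l.4.

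**Figure D3:**
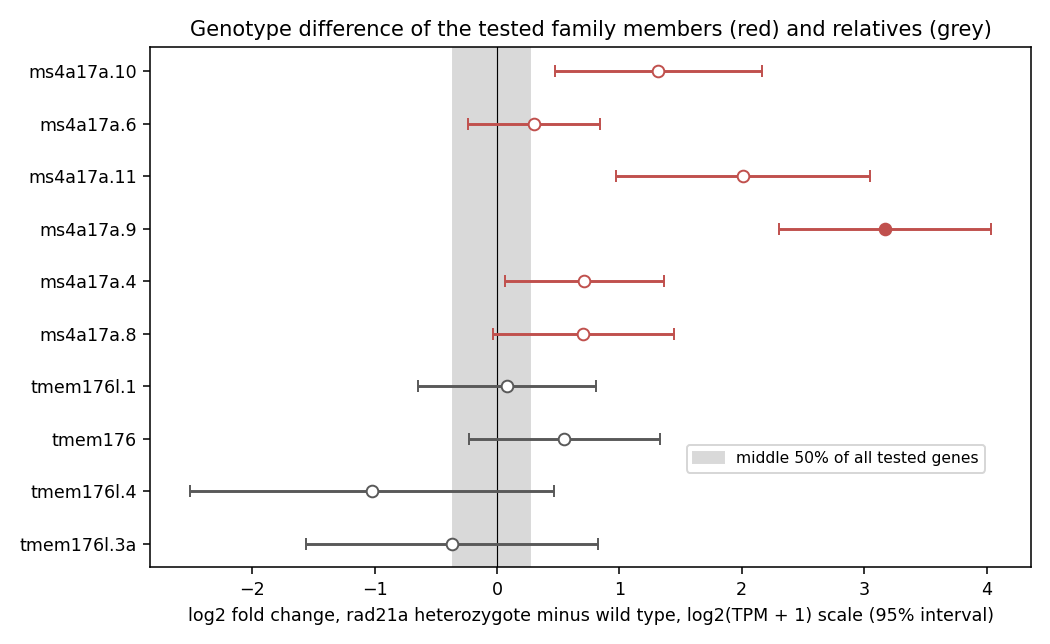
Points give the log2 fold change of heterozygotes minus wild type on the log2(TPM + 1) scale with its 95% interval, in red for the 6 tested family members and in grey for the 4 tested relatives, filled where the limma adjusted p is under 0.05. The shaded band runs between the quartiles of all tested genes, and ms4a17a.9 at 3.17 is the 1 filled point.

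Ratios between members within a library do not depend on how that library was scaled. ms4a17a.9 over ms4a17a.6 was 1.29, 0.696 and 1.04 in the heterozygous pools and 0.0308, 0.0486 and 0.0866 in the wild-type pools. ms4a17a.9 over ms4a17a.10 was 0.700, 0.470 and 0.755 in the heterozygous pools and 0.0645, 0.0472 and 0.113 in the wild-type pools. In both ratios every heterozygous pool was above every wild-type pool. ms4a17a.9 over ms4a17a.11 was 1.24, 1.07 and 0.913 in the heterozygous pools and 0.116, 0.467 and 0.269 in the wild-type pools. ms4a17a.10 over ms4a17a.6 was 1.85, 1.48 and 1.38, against 0.477, 1.03 and 0.769 in the wild-type pools. ms4a17a.11 over ms4a17a.6 was 1.05, 0.652 and 1.14, against 0.265, 0.104 and 0.322 in the wild-type pools. These ratios did not overlap either. By contrast ms4a17a.11 over ms4a17a.10 was 0.567, 0.439 and 0.827 in the heterozygous pools and 0.556, 0.101 and 0.419 in the wild-type pools, which overlapped. The members set in these ratios were chosen with their levels known, and all 6 ratios computed are given with no test.

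The members are neighbours in the genome. In the RefSeq annotation of the assembly GRCz12tu, which is not the build of the deposited values and was used for gene order alone, all 14 ms4a17a genes lie in 1 row with 0 other protein-coding genes between them, on another chromosome than rad21a. Their order there is ms4a17a.17, ms4a17a.16, ms4a17a.11, ms4a17a.9, ms4a17a.8, ms4a17a.5, ms4a17a.2, ms4a17a.1, ms4a17a.7, ms4a17a.3, ms4a17a.6, ms4a17a.10, ms4a17a.4 and ms4a17a.12. ms4a17a.11 and ms4a17a.9, which had the largest log2 fold changes of the tested members, lie side by side. ms4a17a.10, which had the next largest, lies toward the other end of the row beside ms4a17a.6, which had the smallest of them. ms4a17a.7, which was lower in the heterozygotes without overlap, lies between ms4a17a.1 and ms4a17a.3. Genes in such rows can be near copies of each other, and how reads that match several copies were counted is not known here, so levels of single members are uncertain to that extent.

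**Figure D4:**
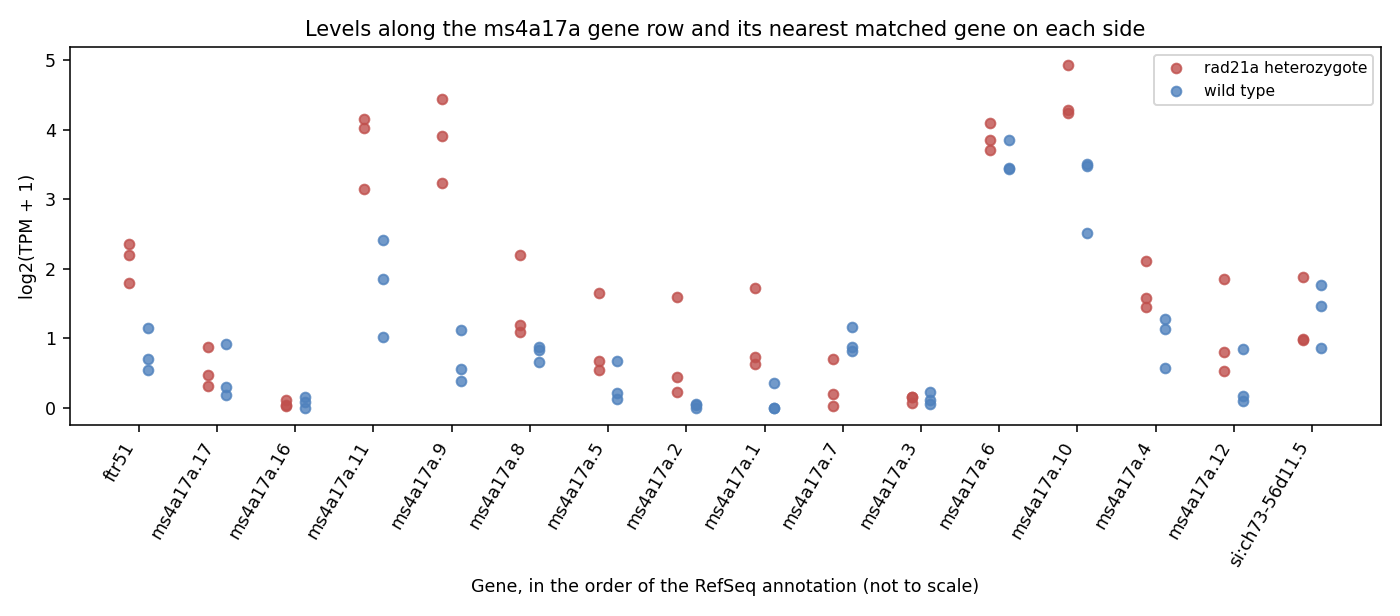
Points give log2(TPM + 1) of each library for the 14 ms4a17a genes in their RefSeq order, not to scale, with the nearest gene on each side that has an identifier in the table, in red for heterozygotes and blue for wild type. The group means stand farthest apart at ms4a17a.9 and ms4a17a.11. The groups overlap at ms4a17a.17, ms4a17a.16, ms4a17a.5, ms4a17a.3, ms4a17a.6 and ms4a17a.12, and at the flanking gene si:ch73-56d11.5.

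Genes that flank the row were compared as a local background. Of the 12 protein-coding genes on each side, 11 of 24 had an identifier in the table and 9 were tested. Their log2 fold changes ran from -0.27 to 1.32, 0 passed the threshold in limma, and 3 had an unadjusted p under 0.05, against 15% of all tested genes. The highest was ftr51, of the finTRIM family of TRIM-domain proteins of fish, which lies next to ms4a17a.17. ftr51 stood at 3.59, 2.48 and 4.11 TPM in heterozygous marrow, against 0.460, 0.630 and 1.22 TPM in wild-type marrow (log2 fold change 1.32 ± 0.24 (SE), limma adjusted p = 0.0648). The groups did not overlap for ftr51, and the next highest flanking gene, zgc:113119, had a log2 fold change of 0.62. ftr51 reached 1 TPM in all heterozygous pools and in 1 wild-type pool, and zgc:113119 in no wild-type pool. Neither could have entered the test without being high in the heterozygotes, so the upper end of this range and the count are a description.

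Genes outside the family with the most similar pattern were found by the root mean square distance between centred log2(TPM + 1) profiles over the 6 libraries, among 13105 tested genes with a gene-like symbol. The 5 nearest to ms4a17a.9 were tapbp.1, CD36, igl3v1, cfhl2 and pigrl2.3, at distances of 0.271 to 0.455. tapbp.1 belongs to the tapasins, which load peptides on MHC class I, and stood at 16.7, 12.3 and 13.3 TPM in heterozygous marrow, against 0.696, 0.529 and 1.15 TPM in wild-type marrow. CD36 (ENSDARG00000032639) carries the symbol of a scavenger receptor for lipids, and stood at 8.71, 5.66 and 12.2 TPM in heterozygous marrow, against 0.192, 0.239 and 0.557 TPM in wild-type marrow. Both were high in all heterozygous pools and low in all wild-type pools, as ms4a17a.9 was, a likeness for which they were chosen. CD36 and cfhl2 reached 1 TPM in no wild-type pool, and tapbp.1 in 1. These genes therefore entered the test through the heterozygous pools, and their pattern is a description. igl3v1 is an immunoglobulin light chain segment, cfhl2 has the name of a factor H-like complement gene, and pigrl2.3 belongs to the receptors like the polymeric immunoglobulin receptor. Their mean levels were 51.8, 13.5 and 90.9 TPM in the heterozygotes and 4.69, 0.173 and 17.3 TPM in the wild type.

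The 5 nearest to the family sum were ccl25b, SELE, ftr51, agr1 and cd37, at distances of 0.0888 to 0.196. ccl25b, a chemokine, stood at 106, 54.9 and 77.8 TPM in heterozygous marrow, against 22.6, 26.6 and 32.7 TPM in wild-type marrow. SELE (ENSDARG00000042138) carries the symbol of E-selectin and stood at 30.4, 16.3 and 19.6 TPM in heterozygous marrow, against 6.32, 7.12 and 11.3 TPM in wild-type marrow. In both genes, as in the family sum, heterozygous pool 1 was the highest library and wild-type pool 1 the lowest. cd37, a tetraspanin of B cells in mammals and a member of the B cell list, stood at 70.0, 36.1 and 45.8 TPM in heterozygous marrow, against 9.93, 14.5 and 23.9 TPM in wild-type marrow. ftr51 is the gene beside the row described above. These genes were chosen for their likeness, so their differences between the genotypes are a description, and likeness over 6 libraries of 2 genotypes says nothing of shared function.

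**Figure D5:**
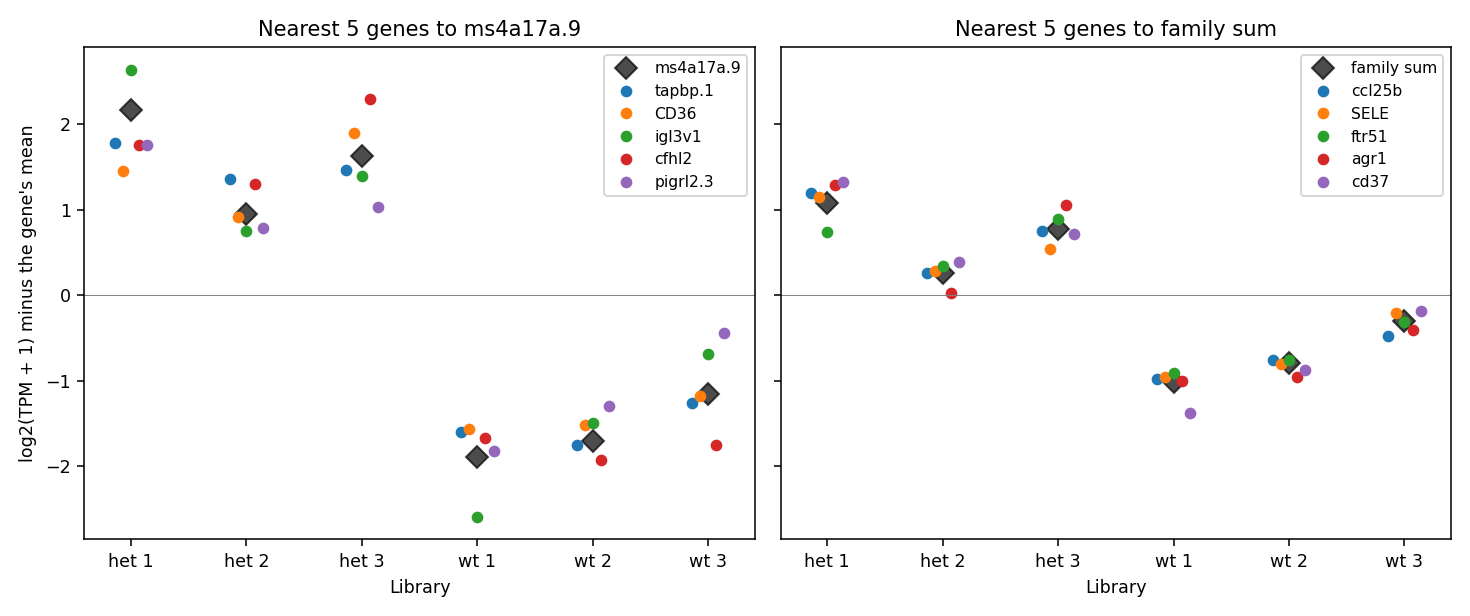
Points give log2(TPM + 1) minus the gene's own mean in each library, heterozygous pools at the left and wild-type pools at the right, for ms4a17a.9 and its 5 nearest genes in the left panel and for the family sum and its 5 nearest genes in the right panel. All 10 nearest genes lie above 0 in the heterozygous pools and below 0 in the wild-type pools.

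Of 13 marker lists, the B cell and progenitor lists were higher in the heterozygotes without overlap, the egg and skeletal muscle lists were lower without overlap, and the other 9 overlapped between the genotypes. None of the genes found for these lists was at 0 in all libraries. The B cell list, with 14 of 17 symbols found and 15 genes, summed to 1336, 405 and 517 TPM in heterozygous marrow, against 127, 151 and 317 TPM in wild-type marrow. As for the family sum, these groups did not overlap, heterozygous pool 1 was the highest library and wild-type pool 1 the lowest. All 14 tested genes of the list had positive log2 fold changes, with a median of 0.83. Of these, 0 passed the threshold in limma and 8 had an unadjusted p under 0.05. Of all 16537 tested genes, 7948 had positive log2 fold changes and 15% had an unadjusted p under 0.05. In the B cell list irf4b reached 1 TPM in no wild-type pool, and CXCR5 only in wild-type pool 3. Both entered the test only through heterozygous pools, so the counts and median of this list are a description. The immunoglobulin genes ighm and igic1s1 made up the most of the sum, with means of 293 and 238 TPM in the heterozygotes and 65.6 and 32.5 TPM in the wild type. Set against that list, ms4a17a.9 stood at 1.56, 2.07 and 2.71 TPM per 100 TPM of B cell transcripts in the heterozygous pools and at 0.240, 0.318 and 0.369 TPM per 100 TPM in wild-type marrow. The part of B cell content in the level of the family was not tested.

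The progenitor list, with 10 of 11 symbols found and 10 genes, summed to 536, 377 and 381 TPM in heterozygous marrow, against 328, 288 and 355 TPM in wild-type marrow. Heterozygous pool 1 was again the highest library. Of the 9 tested genes 0 passed the threshold in limma and 1 had an unadjusted p under 0.05, against 15% of all tested genes. The part of progenitor content in the level of the family was not tested either. The macrophage list, with 24 of 26 symbols found and 23 genes, summed to 4911, 3209 and 3326 TPM in heterozygous marrow, against 2886, 2796 and 3626 TPM in wild-type marrow. The neutrophil list, with 16 of 19 symbols found and 15 genes, summed to 63022, 24283 and 24764 TPM in heterozygous marrow, against 19774, 26653 and 29502 TPM in wild-type marrow. In the sums of the macrophage and neutrophil lists the genotypes overlapped, and heterozygous pool 1 was the highest library. Of 21 tested macrophage genes 14 had positive log2 fold changes, 0 passed the threshold in limma and 6 had an unadjusted p under 0.05. Of 15 tested neutrophil genes, which lack the listed symbol mpx because it was not found, these counts were 14, 0 and 0. Of all 16537 tested genes 7948 were positive and 15% had such a p. The part of macrophage and neutrophil content in the level of the family was not tested. ms4a17a.9 stood at 0.423, 0.262 and 0.421 TPM per 100 TPM of macrophage transcripts in the heterozygous pools and at 0.0105, 0.0172 and 0.0323 TPM per 100 TPM in wild-type marrow.

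Lists of other tissue varied between the pools. The skeletal muscle list, with 13 of 17 symbols found and 15 genes, summed to 21.6, 37.4 and 21.5 TPM in heterozygous marrow, against 147, 97.4 and 121 TPM in wild-type marrow, and these ranges did not overlap. Of its 8 tested genes, 3 were called lower in limma, against 0.562% of all tested genes. In the heterozygotes pvalb2 reached 1 TPM only in pool 2, so it entered the test through the wild-type pools. This count is therefore a description. The interrenal list, with 12 of 13 symbols found and 13 genes of the steroid-making cells of this organ, summed to 10.01, 579 and 849 TPM in heterozygous marrow, against 5.33, 147 and 42.3 TPM in wild-type marrow. Here the genotypes overlapped, with pool 1 the lowest library of each genotype. In limma 1 of 6 tested genes was called higher, against 0.81% of all tested genes. In the wild type cyp21a2 reached 1 TPM only in pool 3, and hsd3b1 only in pool 2. cyp21a2 entered the test through the heterozygous pools, and hsd3b1 through heterozygous pools 2 and 3 together with wild-type pool 2. Neither could have entered without being high in heterozygous pools, so the interrenal count is a description. The part of muscle and interrenal tissue in the differences of the family was not tested.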

How the data were processed

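Total RNA from whole kidney marrow was sequenced in 6 libraries. The submitters' processing notes name the build GRCz11 and the tools featureCounts, HISAT2 2.0.4 and FastQC. The authors deposited TPM, which sum to 1e+06 in each library. The annotation, its gene lengths, the strand setting and the treatment of reads with several matches are not stated in these notes. Identifiers were given symbols from a name table, which held 28988 of the 32057 identifiers.

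The 16537 genes that reached 1 TPM in 3 or more libraries were fitted on log2(TPM + 1) with limma 3.58.1 (R 4.3.3), with genotype as the only term and a mean trend in the variance. Two-sided p-values were adjusted over all genes tested (Benjamini-Hochberg). With libraries left out, the set of genes tested was kept as it was. The steps were tested on simulated data. The members, lists and tests were chosen with earlier results of these data known. Named genes were the family, rad21a, relatives that passed the filter, the 5 genes nearest to ms4a17a.9 and to the family sum, and up to 4 genes per marker list. Relatives below the filter and neighbours of the gene row were named after their values were seen. The same holds for irf4b, CXCR5, cyp21a2, hsd3b1 and pvalb2, named for how they passed the filter. The listed symbol mpx was named because it was not found. Alternatives covered the pseudocount, filter, scaling, variance model, library weights, replicate block, egg transcript score and left-out libraries.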

Additional observations from a re-analysis of the deposited data

How the results depend on the processing

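The family sum kept its direction under all 13 alternatives, with a log2 ratio of heterozygous over wild-type levels between 1.16 (without ms4a17a.9) and 1.80 (without wild-type pools 2 and 3). Its groups did not overlap, so leaving out libraries, taking medians or pairing pools could not turn the sign. The sum without ms4a17a.9, ms4a17a.10 and ms4a17a.11 was not among the 13. There the log2 ratio was 0.60 and the groups overlapped. For the 10 kept genes the log2 ratio was 1.45 as reported, a ratio of group means, and ran from 1.24 to 1.69 with single libraries left out. As a ratio of group medians it was 1.62. The replicate block, the mean of the log2 ratios of same-numbered pools, gave 1.44. ms4a17a.9 was called in 14 of 18 alternatives, with log2 fold changes from 1.73 (pseudocount 5) to 4.34 (pseudocount 0.1). Its lowest limma adjusted p, 0.000247, came from the fit with weights per library, which did not converge and is among the 14. With the egg transcript score as a covariate the limma adjusted p was 0.0837. The number of kept members called was 1 as reported, 0 with the replicate block (ms4a17a.9, limma adjusted p = 0.0773), with the egg transcript score and without wild-type pools 2 and 3, 5 with weights per library, and between 0 and 1 with single libraries left out, 0 being without heterozygous pool 3. Same-numbered pools did not deviate together (correlations of -0.272, 0.117 and -0.129 for numbers 1, 2 and 3). With 3 pools per genotype this cannot settle whether the numbers pair them, and the labels do not say. Calls over all genes, 227 as reported (134 higher, 93 lower), were 132 with no filter, 134 with a filter on the mean, 7397 with weights, 25 with the replicate block, 55 with the egg score, 53 without wild-type pools 2 and 3, 397 at an adjusted p under 0.1, and 90 to 1088 with single libraries left out; the 1088, without wild-type pool 1, were 202 higher and 886 lower. The split also turned toward lower calls with weights (2088 higher, 5309 lower), the replicate block (10 higher, 15 lower), the egg score (16 higher, 39 lower) and without wild-type pools 2 and 3 (10 higher, 43 lower), and without wild-type pool 3 it was 45 higher and 46 lower. Quantile normalization gave 206 higher and 75 lower, and moved the median of all genes to 0.11.

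The fit with weights did not converge, placed a weight of 106 on wild-type pool 3 and moved the median of all genes to -0.16. Under it 2 relatives were called, and ms4a17a.6, tmem176 and tmem176l.1 turned sign, at -0.028, -0.19 and -0.33. tmem176l.1 also turned without heterozygous pool 1 (-0.19) or wild-type pool 1 (-0.043), and tmem176l.3a without wild-type pool 3 (0.018); with single libraries left out they ran from -0.19 to 0.31 and from -0.80 to 0.018. The cause of these changes was not tested. Read depth is unknown, so what low members could show at this depth cannot be stated.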
